A study of Homo sapiens with 12 samples.

Results

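The proteasome and immunoproteasome genes were taken as the protein-coding genes whose symbol begins with PSM, followed by a letter from A to G and a digit, in the gene annotation GENCODE release 44. There were 50 such genes among the 19586 protein-coding genes counted. Of these, 48 encode proteasome subunits, activators, an inhibitor or assembly chaperones, and 2 (PSMC3IP and PSME3IP1) met the pattern by their letters but encode partners of other proteins. RNA-sequencing compared parental cells of the diffuse large B-cell lymphoma (DLBCL) lines SUDHL6 and SUDHL16, which are sensitive to venetoclax (ABT-199, an inhibitor of the anti-apoptotic protein BCL2), with a resistant line derived from each. The resistant lines had grown for months in slowly rising venetoclax and were kept in it, at no less than 10 times the original IC50, a measure of how much drug the cells withstand, whereas the parental lines were grown without it. Each resistant line is 1 derivative of its parental line, and no other resistant derivative was sequenced here, so resistance and long exposure cannot be told apart. Cells were put into fresh medium for experiments, and whether it held venetoclax is not stated. There were 3 libraries per group and 12 in all, and nothing in the labels says whether they came from separate cultures, so p-values measure the spread between these libraries, which may be technical. In bulk RNA, fewer expressing cells and less RNA per cell cannot be told apart either.

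Proteasomes degrade ubiquitin-tagged proteins. The 20S core is a barrel of alpha rings (PSMA subunits), which gate the entrance, and beta rings (PSMB subunits), of which PSMB5, PSMB6 and PSMB7 cut the chain. The 19S cap unfolds the substrate with its ATPases (PSMC) and recognises and removes ubiquitin with its other subunits (PSMD), while PSME proteins are alternative caps and PSMG proteins build the core. In lymphoid cells and under interferon, PSMB8, PSMB9 and PSMB10 replace PSMB5, PSMB6 and PSMB7 in new cores, and PSME1 and PSME2 form the cap PA28. The resulting immunoproteasome favours peptides that fit MHC class I molecules, and TAP1 and TAP2 carry such peptides into the endoplasmic reticulum. These 5 interferon-inducible genes were examined apart from the rest. Proteasome inhibitors are in use as drugs against some cancers of B lineage cells.

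Levels are in CPM, a gene's count relative to the size of its library after scaling by the TMM method. The SUDHL6 libraries held 33992784 to 40885665 counts, and the SUDHL16 libraries 14335460 to 22068221, other than the parental library CE-26 with 4131927. CE-26 stood apart from the other 11 libraries. Identifiers outside GENCODE took 31.9% of its counts, against at most 5.06% in any other SUDHL16 library, and protein-coding genes took 55.4%, against at least 84.3%. Its PSMB2 level was 940 CPM, against 170 to 271 in the other SUDHL16 libraries, and its PSMD12 level was 293 CPM, against 59.2 to 108. SUDHL16 fold changes are therefore also given without CE-26. The 7 B cell and germinal centre markers examined were present in all 12 libraries, at 50.9 (MME) to 2160 CPM (MS4A1, which encodes CD20). Of 9 markers of T, myeloid, stromal and epithelial cells, 8 reached at most 2.76 CPM. The other, the T cell gene CD3E, was at 1.16 to 4.48 CPM in the SUDHL16 parental libraries and 10.8 to 13.4 in the resistant ones, and its part in any result below was not tested. The lines were prepared with different kits and sequencers (NEBNext Ultra II on a HiSeq for SUDHL6, Illumina Stranded Total RNA with RiboZero Plus on a NovaSeq for SUDHL16), so levels were not compared between the lines.

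Promoter windows from RefSeq (GRCh38.p14, 250 bases before to 50 after the start of a transcript) were found for 44 of the 50 genes, 55 windows in all. The windows of the 5 interferon-inducible genes are shown because interferon is known to induce these genes together. PSMB8 has a second window, at chr6:32844630-32844929, which held none of the letters searched. Capitals mark matches, on either strand, to GAAANNGAA (core of the interferon-stimulated response element), TTCNNNGAA (gamma-activated sequence), TGACNNNGC (antioxidant response element core, bound by NRF1 and NRF2) or CCAAT. The windows lie at chr6:32843998-32844297 (PSMB8, minus strand), chr6:32853942-32854241 (PSMB9, plus strand), chr16:67936801-67937100 (PSMB10, minus strand), chr14:24135944-24136243 (PSME1, plus strand) and chr14:24146561-24146860 (PSME2, minus strand).
PSMB8: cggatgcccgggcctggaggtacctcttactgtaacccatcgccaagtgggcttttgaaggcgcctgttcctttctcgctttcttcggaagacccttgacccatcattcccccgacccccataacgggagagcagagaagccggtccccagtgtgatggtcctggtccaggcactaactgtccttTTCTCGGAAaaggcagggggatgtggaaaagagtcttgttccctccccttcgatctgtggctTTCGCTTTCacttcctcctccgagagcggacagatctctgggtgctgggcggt
PSMB9: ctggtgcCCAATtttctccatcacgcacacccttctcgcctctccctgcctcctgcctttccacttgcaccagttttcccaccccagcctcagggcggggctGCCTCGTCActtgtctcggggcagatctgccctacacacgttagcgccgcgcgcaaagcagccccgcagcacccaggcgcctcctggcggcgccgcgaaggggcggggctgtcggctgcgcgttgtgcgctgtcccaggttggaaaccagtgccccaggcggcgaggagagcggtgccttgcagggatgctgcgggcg
PSMB10: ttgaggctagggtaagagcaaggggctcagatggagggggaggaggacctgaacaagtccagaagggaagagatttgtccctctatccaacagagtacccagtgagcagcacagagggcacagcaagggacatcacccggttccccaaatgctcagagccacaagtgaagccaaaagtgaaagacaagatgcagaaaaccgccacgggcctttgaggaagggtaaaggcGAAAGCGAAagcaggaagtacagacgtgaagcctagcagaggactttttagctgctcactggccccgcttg
PSME1: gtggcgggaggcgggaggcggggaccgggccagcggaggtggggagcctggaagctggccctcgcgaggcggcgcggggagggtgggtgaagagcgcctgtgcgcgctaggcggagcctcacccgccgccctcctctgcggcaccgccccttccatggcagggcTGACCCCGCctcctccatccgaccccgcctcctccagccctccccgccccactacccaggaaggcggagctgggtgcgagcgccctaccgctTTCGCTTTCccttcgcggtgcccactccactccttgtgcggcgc
PSME2: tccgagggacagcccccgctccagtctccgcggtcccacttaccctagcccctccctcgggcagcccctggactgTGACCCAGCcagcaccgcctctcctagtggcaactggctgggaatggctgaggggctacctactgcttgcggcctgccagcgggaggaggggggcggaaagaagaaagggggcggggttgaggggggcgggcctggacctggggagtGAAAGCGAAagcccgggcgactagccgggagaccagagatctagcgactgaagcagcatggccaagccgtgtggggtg

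The interferon core stood in the windows of PSMB8 (TTCGCTTTC, first base at −3 from the transcript start), PSMB10 (GAAAGCGAA, −21), PSME1 (TTCGCTTTC, 7) and PSME2 (GAAAGCGAA, −28), and PSMB8 also held the gamma-activated letters TTCTCGGAA at −65. The PSMB9 window held neither, and held the antioxidant core and CCAAT. Over all members, the interferon core stood in 8 of 55 windows (14.5%), against 8.11% of the 35116 windows of all genes. Of these 8, 4 were among the 6 windows of the 5 interferon-inducible genes. The antioxidant core stood in 15 (27.3%), against 13.3%, with 3 among those 6. The gamma-activated letters stood in 8 windows (14.5%, against 7.66%), and CCAAT in 24 (43.6%, against 34.6%). These are matches of letters only.

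In SUDHL6, PSMB8 and PSMB9, the inducible partners of PSMB5 and PSMB6, rose in the resistant cells with PSMG2, a chaperone that helps to assemble the alpha ring, and the other members tested changed by less than 1.5-fold. A gene was said to have passed when its adjusted p was under 0.05 (edgeR quasi-likelihood test, Benjamini-Hochberg over all genes tested) and was called when it had passed and changed by at least 1.5-fold. Of the 50 members 48 had enough counts to be tested; the other 2 were PSMA8, the testis alpha subunit, with 0 to 7 counts per SUDHL6 library, and PSMB11, the thymus beta subunit, with 0 counts in all 6. Of these, 3 were called raised, with 4.31% of all genes tested called raised, and 0 were called lowered, with 4.65% of all genes called lowered. At the first threshold alone, 13 members had risen and 6 had fallen, against 17.7% and 19.7% of all genes. The median log2 fold change was 0.01 over the members and 0.00 over all genes. In 16 members every resistant library lay above every parental one and in 15 every one lay below, against 23.1% and 24.8% of all genes.

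PSMB8 stood at 17.3, 18.4 and 17.1 CPM in the SUDHL6 parental libraries and 29.8, 29.4 and 28.9 CPM in the resistant ones. The groups did not overlap, and the log2 fold change was 0.74 ± 0.06 (SE, n = 3 per group, adjusted p = 3.94e-07). PSMB9 stood at 6.93, 7.35 and 7.94 CPM and rose to 15.1, 15.3 and 16.8, with the largest change of any member in this line (1.08 ± 0.08, adjusted p = 4.07e-07). The 2 genes adjoin each other in the MHC region of chromosome 6, PSMB8 at 32840717 to 32844679 on the minus strand and PSMB9 at 32844136 to 32859851 on the plus strand, and their exons share 139 bases. Both also overlap exons of the antisense gene PSMB8-AS1, by 602 and 174 bases, and since it is not stated whether counting used strand, reads in those stretches could have been assigned to either gene.

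PSME1 and PSME2 also rose in SUDHL6, by much less, and PSMB10 did not pass. PSME1 stood at 97.0, 98.0 and 94.5 CPM in the parental libraries and 103, 104 and 109 in the resistant ones (0.13 ± 0.03, adjusted p = 0.00425). PSME2 stood at 127, 128 and 130 CPM and at 143, 138 and 138 (0.12 ± 0.03, adjusted p = 0.00205). PSMB10 stood at 42.6, 42.1 and 45.4 CPM and at 48.1, 45.8 and 45.7 (0.10 ± 0.04, adjusted p = 0.0687). In all 5 of these genes the resistant libraries lay above the parental ones without overlap, although for PSMB10 the nearest values, 45.4 and 45.7, were close.

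**Figure D1:**
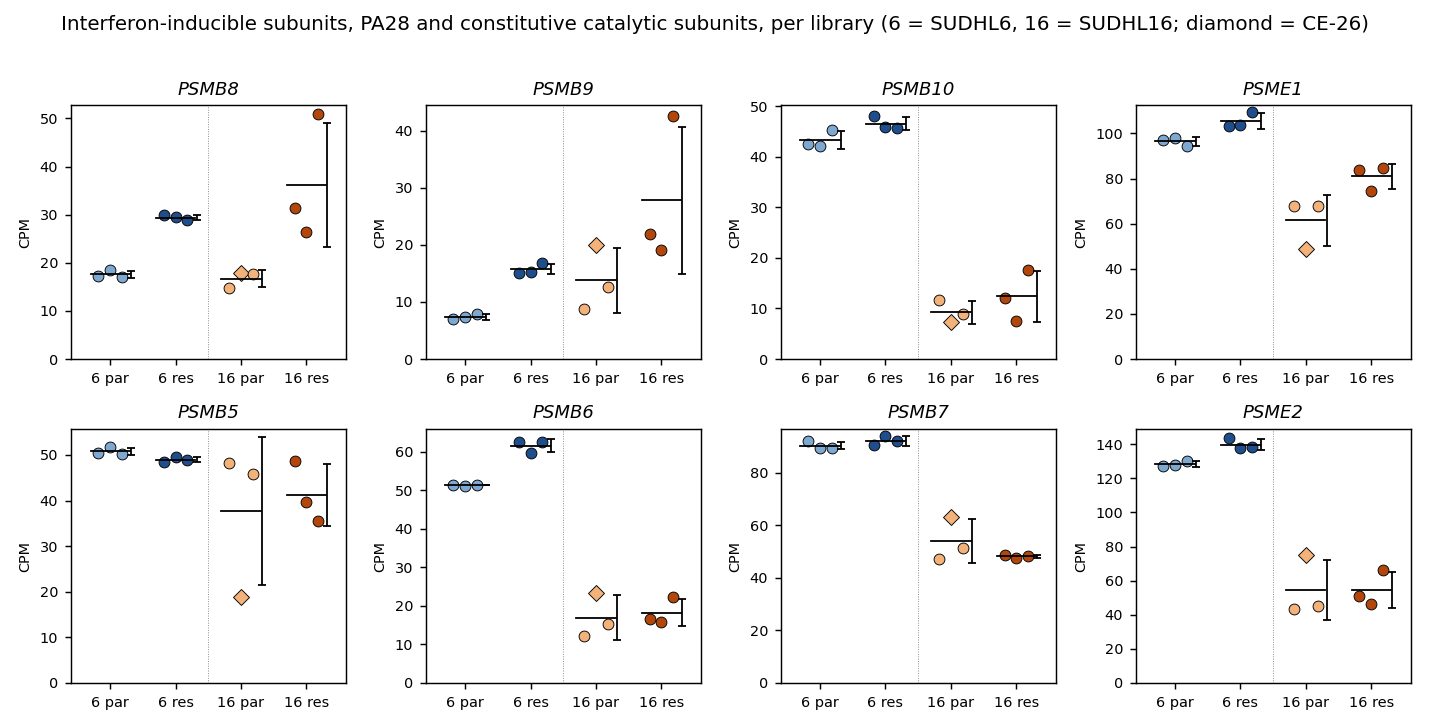
Level in CPM of the 5 interferon-inducible genes and the 3 constitutive catalytic subunits in each of the 12 libraries (points; the horizontal line is the group mean and the bar its SD, n = 3; the diamond is CE-26). PSMB8 and PSMB9 in SUDHL6 went from 17.1 to 18.4 and 6.93 to 7.94 CPM in the parental libraries to 28.9 to 29.8 and 15.1 to 16.8 in the resistant ones, whereas the SUDHL16 resistant libraries spread from 26.4 to 50.9 and 19.1 to 42.6.

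Among the constitutive catalytic subunits of SUDHL6, PSMB6 (caspase-like activity) rose from 51.5, 51.3 and 51.4 CPM to 62.7, 59.7 and 62.5 (0.26 ± 0.03, adjusted p = 2.49e-05). PSMB5 (chymotrypsin-like, the main target of bortezomib) stood at 50.2 to 51.7 CPM in the parental libraries and 48.4 to 49.5 in the resistant ones (−0.05 ± 0.03, adjusted p = 0.202). PSMB7 (trypsin-like) stood at 89.6 to 92.0 CPM and 90.5 to 94.2 (0.03 ± 0.03, adjusted p = 0.442). Neither passed. The ratio of each inducible subunit to the constitutive one whose place it takes was formed in CPM per kb of merged exon. Its size depends on the merged lengths (PSMB8 3480 and PSMB5 1549 bases, PSMB9 3338 and PSMB6 1447), whereas its fold change between groups does not. PSMB8 over PSMB5 was 0.152, 0.159 and 0.151 in the SUDHL6 parental libraries and 0.274, 0.265 and 0.263 in the resistant ones, a 1.74-fold higher ratio. PSMB9 over PSMB6 was 0.0583, 0.0621 and 0.0669 and then 0.105, 0.111 and 0.117, a 1.77-fold higher ratio. PSMB10 over PSMB7 was 0.509 to 0.556 and then 0.535 to 0.584, and the groups overlapped. By a two-sided exact permutation test p was 0.1 for each of the first 2 pairs, the smallest that 3 against 3 can give, and 0.3 for the last, so none of the 3 could reach 0.05. RNA of PSMB8 remained below that of PSMB5, and RNA of PSMB9 below that of PSMB6, in every SUDHL6 library.

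PSMG2 rose from 29.5, 28.7 and 28.3 CPM to 48.7, 46.1 and 46.4 in SUDHL6 (0.71 ± 0.04, adjusted p = 5.29e-08), without overlap. Its dimer partner PSMG1 stood at 44.8 to 45.5 CPM and 43.3 to 44.2 (−0.05 ± 0.03, adjusted p = 0.285) and did not pass. PSMG2 lies on chromosome 18 at 12658043 to 12728945. Of the 25 other tested protein-coding genes that start within 5 Mb of it, 24 were higher in the resistant cells (median of their log2 changes 0.61), and 9 rose by at least as much as PSMG2. In SUDHL16 PSMG2 stood at 28.7, 19.97 (CE-26) and 23.2 CPM in the parental libraries and 30.1, 38.9 and 47.0 in the resistant ones, again without overlap. Its log2 fold change of 0.68 ± 0.26 did not pass there (adjusted p = 0.203, and 0.59 ± 0.26, adjusted p = 0.221, without CE-26), and 1 of 13 alternatives called it. The difference between the lines was −0.0040 ± 0.29 (adjusted p = 0.9999). Its 25 neighbours in SUDHL16 had a median of 0.01, and 1 of them rose by at least as much. In SUDHL6 the number that rose by at least as much as PSMB8 was 6 of 187 neighbours, with a median of 0.05, and for PSMB9, which has nearly the same neighbours, 3 of 187.

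The remaining changes in SUDHL6 that passed were small and lay in several parts of the particle. The cap PSME4 (PA200, found in the nucleus) went from 183, 188 and 186 CPM to 216, 221 and 223 (0.24 ± 0.02, adjusted p = 2.83e-06). For this gene too the neighbours were higher, 15 of 17 with a median of 0.26. PSMD14, the deubiquitinase of the 19S lid, had 80.2 to 81.6 CPM in the parental libraries and 90.7 to 93.5 in the resistant ones (0.19 ± 0.03). PSMD9, a chaperone of the 19S base, had 37.1 to 38.3 CPM and 43.9 to 46.4 (0.25 ± 0.04). PSMB4, a non-catalytic beta subunit, had 122 to 125 CPM and 132 to 143 (0.16 ± 0.03). The lowered members with the smallest adjusted p were PSMC1, PSME3, PSMD6, PSMD13 and PSME3IP1. PSMC1, an ATPase, had 124 to 129 CPM in the parental libraries and 110 to 113 in the resistant ones (−0.18 ± 0.03). PSME3, the nuclear cap PA28 gamma, had 204 to 207 CPM and 182 to 186 (−0.15 ± 0.02). The 19S lid subunits PSMD6 and PSMD13 fell by 0.11 ± 0.03 and 0.08 ± 0.02 on the log2 scale, and PSME3IP1, which is no proteasome protein, by 0.08 ± 0.03. PSMC1 has 13 annotated pseudogenes with identifiers of their own in the counts, and PSME2 has 6. Whether reads were exchanged between a gene and such copies was not tested. By role, 1 of 7 tested alpha subunits rose and 0 fell, 2 of 7 constitutive beta subunits rose and 0 fell, 0 of 6 ATPases rose and 1 fell, 2 of 11 other 19S subunits rose and 3 fell, and 2 of 3 base chaperones rose and 0 fell, against 17.7% and 19.7% of all genes. PSMA2 (0.12 ± 0.16) rested on 1 library in SUDHL6, where the parental library CE-8 had 72.0 CPM and the other 5 had 120 to 137. The gene overlaps another protein-coding gene on the same strand, and the part of that overlap was not tested.

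**Figure D2:**
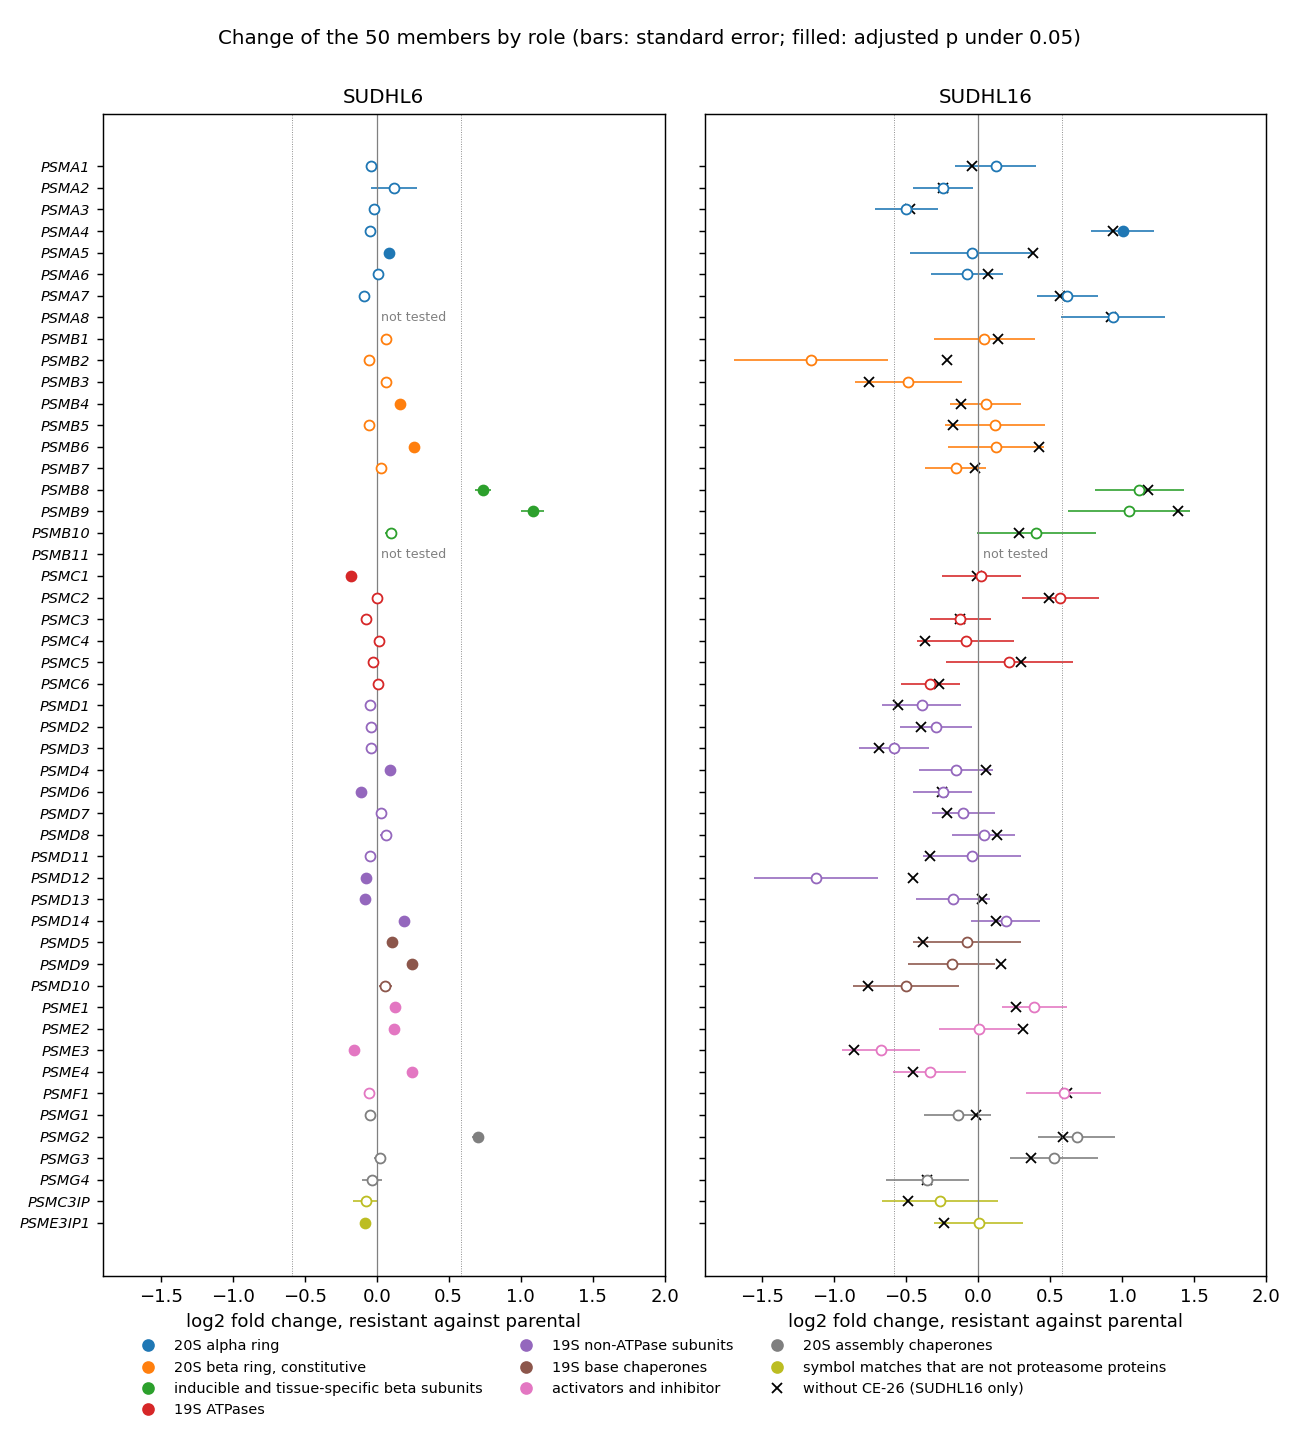
Log2 fold change, resistant against parental, of each of the 50 members in SUDHL6 (left) and SUDHL16 (right), grouped by role in colour; bars are standard errors, filled points passed an adjusted p under 0.05, crosses give SUDHL16 without CE-26, and dotted lines mark 1.5-fold. In SUDHL6 PSMB9 (1.08), PSMB8 (0.74) and PSMG2 (0.71) stand to the right of a narrow band around 0, and in SUDHL16 PSMA4 (1.004) is the filled point.

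In SUDHL16, PSMA4, a constitutive alpha subunit, was the member that rose, and PSMB8 was higher in every resistant library without passing. Of the 50 members 49 were tested, all but PSMB11, which had 12 counts in CE-26 and 0 in the other 5 libraries. Of these, 1 was called raised, with 3.2% of all genes called raised, and 0 were called lowered by edgeR, with 2.1% of all genes called lowered. The unadjusted p was under 0.05 for 11 members, against 19.1% of all genes. Without CE-26, 1 was called raised (PSMA4), with 6.73% of all genes, and 1 was called lowered (PSME3), with 3.32%. The spread between libraries was wider than in SUDHL6, with a biological coefficient of variation of 0.468 (0.339 without CE-26) against 0.0516. In 7 members every resistant library lay above every parental one and in 7 every one lay below, against 14.6% and 11.9% of all genes. Without CE-26 these were 10 and 17 members, against 22.4% and 19.8% of all genes. The median log2 fold change of the members was −0.08, against −0.02 over all genes and 0.04 over protein-coding genes. It was −0.02 against 0.05 over all genes without CE-26, and 0.02 against 0.11 when libraries were scaled by their totals alone, so the sign of the members' median depended on the scaling. It lay below that of all genes in these 3 fits but above it, by 0.0031 to 1.19, in 4 of 13 alternatives (no filter, a joint fit of both lines, and without CE-25 or CE-28).

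PSMA4 stood at 70.6, 56.5 (CE-26) and 63.4 CPM in the SUDHL16 parental libraries and 134, 132 and 116 in the resistant ones. The groups did not overlap, and the log2 fold change was 1.004 ± 0.22 (adjusted p = 0.0347). Without CE-26 it was 0.94 ± 0.21 (adjusted p = 0.0265). Leaving out any other library of the line ended the call, with log2 fold changes of 0.97 to 1.10 and adjusted p-values of 0.0984 to 0.157. In SUDHL6 the same gene stood at 170 to 171 CPM in the parental libraries and 164 to 167 in the resistant ones (−0.05 ± 0.02, adjusted p = 0.111), and the change differed between the lines by 1.07 ± 0.21 (adjusted p = 0.00797). The SE of that difference, from a fit with 1 spread per gene over both lines, was below the one in SUDHL16 alone (0.206 beside 0.217). PSMA4 was the 1 member for which the difference between the lines passed, with 7.16% of all genes. It lies on chromosome 15 at 78540405 to 78552417. Of 72 neighbours tested in SUDHL16, 63 were higher in the resistant cells, with a median of 0.94, and 31 rose by at least as much as PSMA4. Without CE-26 these were 70 of 72 with a median of 1.02.

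Other alpha subunits of SUDHL16 went up and down. PSMA7 stood at 79.0, 66.8 (CE-26) and 75.4 CPM in the parental libraries and 117, 102 and 121 in the resistant ones, without overlap (0.62 ± 0.21, adjusted p = 0.153). Its neighbours on chromosome 20 moved with it, 59 of 67 being higher with a median of 0.64. PSMF1, the proteasome inhibitor PI31, lies at the other end of the same chromosome and had 41 of 51 neighbours higher, with a median of 0.73 beside its own 0.59 ± 0.26 (adjusted p = 0.26). PSMA8, which is known from meiotic cells, was at 8.21, 7.92 (CE-26) and 8.44 CPM in the parental and 14.5, 10.7 and 21.9 CPM in the resistant libraries (0.93 ± 0.36, adjusted p = 0.205). Its 15 neighbours had a median of −0.21, and 0 of them rose by as much, while they reached down to −6.92. PSMA3 went the other way, from 86.4, 86.8 and 81.7 CPM to 59.3, 70.2 and 50.7 (−0.50 ± 0.22, adjusted p = 0.26). None of these 4 passed, and without CE-26, where none passed either, the log2 fold changes were 0.57 ± 0.21 (PSMA7), 0.62 ± 0.27 (PSMF1), 0.93 ± 0.37 (PSMA8) and −0.48 ± 0.22 (PSMA3).

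**Figure D3:**
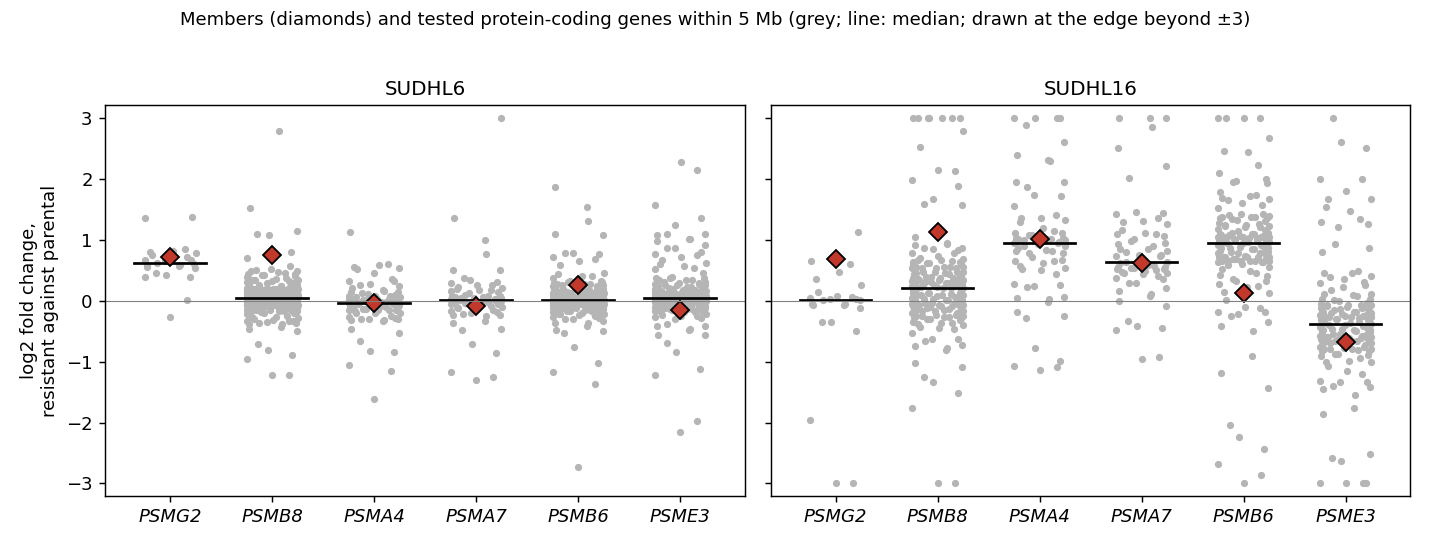
Log2 fold change, resistant against parental, of 6 members (diamonds) and of the tested protein-coding genes that start within 5 Mb of each (grey points; the line is their median; values beyond 3 in size are drawn at the edge), in SUDHL6 (left) and SUDHL16 (right). PSMG2 in SUDHL6 (median of neighbours 0.61) and PSMA4 (0.94) and PSMA7 (0.64) in SUDHL16 sit among neighbours shifted the same way, whereas PSMB8 lies above the median of its neighbours in both lines and PSMB6 in SUDHL16 below that of its own (0.13 beside 0.95).

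PSMB8 was at 14.7, 17.9 (CE-26) and 17.6 CPM in the SUDHL16 parental libraries and 31.3, 26.4 and 50.9 in the resistant ones. The groups did not overlap, but the resistant libraries differed among themselves, and the log2 fold change of 1.12 ± 0.31 had an adjusted p of 0.0783 (0.0593 without CE-26, 0.00496 to 0.231 over 13 alternatives, 3 of which called it). PSMB9 was at 8.76, 19.97 (CE-26) and 12.7 CPM and then 21.8, 19.1 and 42.6. Here CE-26 lay above the lowest resistant library, and the log2 fold change was 1.04 ± 0.42 (adjusted p = 0.226) with it and 1.39 ± 0.41 (adjusted p = 0.0698) without it. Over 13 alternatives its adjusted p was 0.0205 to 0.575, and 2 called it. Leaving out the resistant library CE-30, in which both genes were highest, gave 0.80 for PSMB8 and 0.61 for PSMB9. PSMB8 lay above the median of its neighbours in the MHC region (0.20, with 16 of 171 at or above it, and 30 of 177 without CE-26).

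PSME1 was at 68.0, 48.6 (CE-26) and 68.0 CPM in the SUDHL16 parental libraries and 83.6, 74.6 and 84.6 in the resistant ones (0.39 ± 0.23, adjusted p = 0.402). PSME2 was at 43.5, 75.1 (CE-26) and 45.0 CPM and at 50.9, 46.3 and 66.2 (0.01 ± 0.28, adjusted p = 0.991, and 0.31 ± 0.23 without CE-26). PSMB10 was at 11.7, 7.23 (CE-26) and 8.81 CPM and at 11.99, 7.53 and 17.6 (0.40 ± 0.41, adjusted p = 0.668). With CE-26 left out, PSMB8 had a log2 fold change of 1.18 ± 0.33, PSME1 one of 0.26 ± 0.20 and PSMB10 one of 0.28 ± 0.41. None passed with or without CE-26, and the PSMB10 groups overlapped in both. Together, the 5 interferon-inducible genes took 3.67% to 4.12% of the counts of all members in the parental libraries of SUDHL16 and 5.09% to 7.39% in the resistant ones, and in SUDHL6 6.26% to 6.39% and then 7.08% to 7.23%. The groups did not overlap in either line on this measure, and in SUDHL16 the parental shares without CE-26 were 3.67% and 4.10%. The share of CE-26 (4.12%) was lowered by its high PSMB2 (2729 counts) and PSMD12 (852), out of 11893 member counts. With these genes left out of the totals, the share of CE-26 would lie above that of the resistant library CE-29, so the SUDHL16 groups would overlap. The change of the 5 genes was not shown to differ between the lines, with differences from −0.05 ± 0.26 (PSME2) to 0.42 ± 0.31 (PSMB8, adjusted p = 0.482).

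The ratio of PSMB9 to PSMB6 was 0.310, 0.370 (CE-26) and 0.359 in the SUDHL16 parental libraries and 0.570, 0.521 and 0.829 in the resistant ones, in CPM per kb, a 1.81-fold higher ratio without overlap (two-sided exact permutation p = 0.1). The ratio of PSMB8 to PSMB5 was 0.135, 0.421 (CE-26) and 0.171 and then 0.286, 0.297 and 0.639, so that CE-26 lay inside the resistant range (1.77-fold, exact permutation p = 0.3). Without CE-26 it was 2.49-fold higher with no overlap (exact permutation p = 0.2, with 2 libraries against 3). The ratio of PSMB10 to PSMB7 overlapped, at 0.126 to 0.274 and 0.173 to 0.402 (exact permutation p = 0.5). PSMB5 itself stood at 48.2, 18.9 (CE-26) and 45.7 CPM and at 48.8, 39.7 and 35.4, PSMB6 at 12.2, 23.4 (CE-26) and 15.3 and at 16.6, 15.9 and 22.3, and PSMB7 at 47.2, 63.4 (CE-26) and 51.4 and at 48.8, 47.8 and 48.2. In all 3 CE-26 held the lowest or the highest value of the line, and none of the 3 passed (adjusted p = 0.905, 0.888 and 0.76). Without CE-26 their log2 fold changes were −0.17 ± 0.23, 0.42 ± 0.29 and −0.02 ± 0.20, and none passed.

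**Figure D4:**
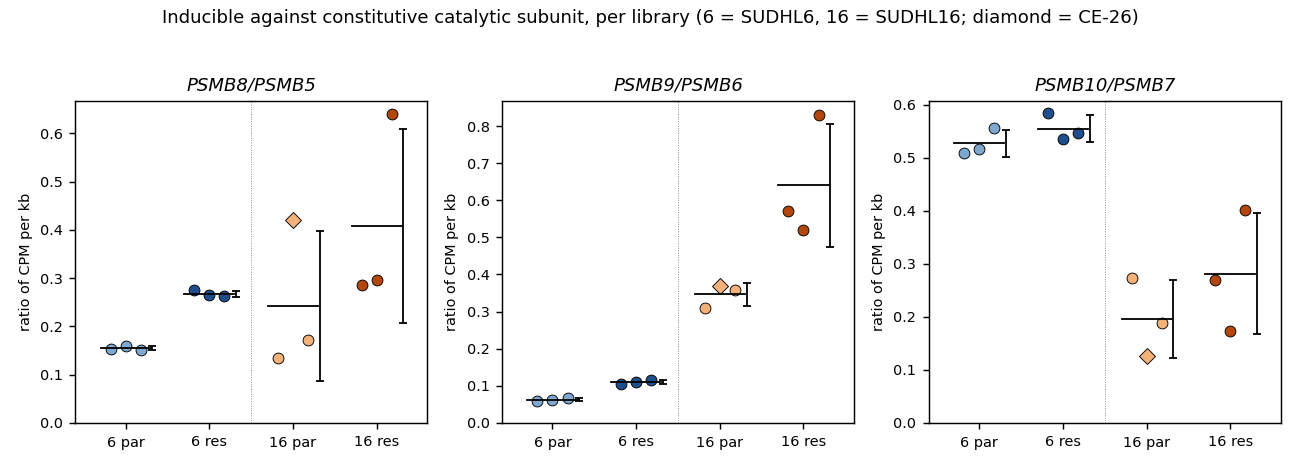
Ratio of each inducible catalytic subunit to the constitutive subunit it replaces, in CPM per kb of merged exon, in each library (points; line, arithmetic mean; bar, SD, n = 3; diamond, CE-26). PSMB9 over PSMB6 does not overlap between parental and resistant libraries in either line (0.0583 to 0.0669 and 0.105 to 0.117 in SUDHL6, 0.310 to 0.370 and 0.521 to 0.829 in SUDHL16), whereas PSMB10 over PSMB7 overlaps in both.

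PSME3, the cap PA28 gamma, was lower in resistant SUDHL16 cells and was called when CE-26 was left out. It stood at 234, 143 (CE-26) and 230 CPM in the parental libraries and 126, 135 and 121 in the resistant ones. The groups did not overlap, and the log2 fold change was −0.68 ± 0.27 (adjusted p = 0.216) with CE-26 and −0.86 ± 0.19 (adjusted p = 0.0273) without it. On chromosome 17 its neighbours were also lower (35 of 150 higher, median −0.38, and 44 of 150, median −0.40, without CE-26), and PSMD3, a 19S lid subunit less than 5 Mb away, shares most of them. PSMD3 went from 182, 139 (CE-26) and 184 CPM to 101, 107 and 130 (−0.58 ± 0.24, adjusted p = 0.234, and −0.69 ± 0.21, adjusted p = 0.0758, without CE-26). On the other arm of that chromosome PSMB6 had 129 of 147 neighbours higher, with a median of 0.95, while its own change was 0.13 ± 0.33. PSME4, raised in SUDHL6, was at 241, 170 (CE-26) and 218 CPM and at 146, 193 and 159 (−0.34 ± 0.26, adjusted p = 0.543). Without CE-26 its log2 fold change was −0.46 ± 0.21. Without CE-26 the difference between the lines passed for PSMA4 (0.94), PSMA7 (0.61), PSMD3 (−0.70), PSME3 (−0.75) and PSME4 (−0.74), with 14% of all genes. For each of these the SE of the difference was below that in SUDHL16 alone, such as 0.120 beside 0.193 for PSME3. PSMB2 and PSMD12 had log2 fold changes of −1.16 ± 0.53 and −1.13 ± 0.43 with CE-26 and −0.22 ± 0.25 and −0.46 ± 0.24 without it. Of the 11 non-ATPase 19S subunits 9 had values below 0 in SUDHL16, against 7991 of 15708 genes. None passed, and 2 (PSMD3 and PSMD12) had an unadjusted p under 0.05, against 19.1% of all genes. Without CE-26 7 of the 11 lay below 0, against 7662 of 16280 genes, and again none passed.

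All members together took 0.477% to 0.482% of protein-coding counts in the SUDHL6 parental libraries and 0.490% to 0.493% in the resistant ones. In SUDHL16 they took 0.450% to 0.520% and 0.401% to 0.429%, and without PSMB2 and PSMD12, the genes high in CE-26, 0.363% to 0.440% and 0.367% to 0.401%, which overlapped. Without CE-26 as well, the parental range was 0.406% to 0.440%, and the groups did not overlap. By CPM per kb, PSMB3, a non-catalytic beta subunit, was the highest member in both SUDHL6 groups (76.3 and 79.7 CPM per kb), and of the tested members PSMG2, PSMB9, PSMG4, PSMC3IP and PSMD9 were the lowest in the parental cells (2.22 to 4.30). PSMB9 was at 2.22 CPM per kb there and PSMB6 at 35.5. The order depends on merged length, which takes in the exons of all annotated transcripts and was 12490 bases for PSMG2, 10415 for PSMG4 and 8773 for PSMD9. In CPM these stood at 28.8, 25.9 and 37.7 in the SUDHL6 parental cells, above PSMB8 (17.6), which ranked higher per kb. In resistant SUDHL16 cells PSMA7 was highest, at 64.7 CPM per kb, and PSMB8 and PSMB9 stood at 10.4 and 8.34.

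**Figure D5:**
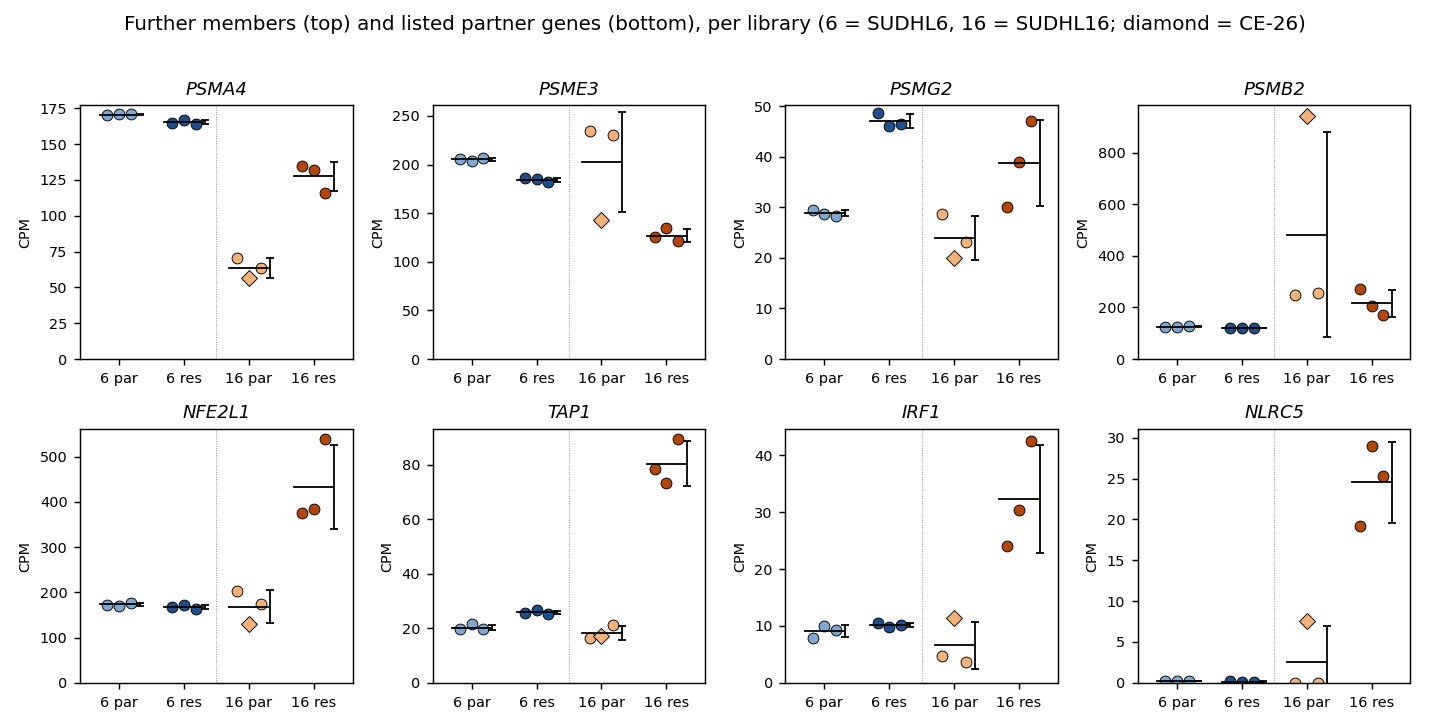
Level in CPM of PSMA4, PSME3, PSMG2 and PSMB2 (top) and of the partner genes NFE2L1, TAP1, IRF1 and NLRC5 (bottom) in each library (points; line, mean; bar, SD, n = 3; diamond, CE-26). Between the SUDHL6 groups PSMG2 and TAP1 (higher in resistant cells) and PSMA4, PSME3 and PSMB2 (lower) are separated. Between the SUDHL16 groups all genes shown but PSMB2 are separated, with PSME3 lower and the others higher in resistant cells. CE-26 alone holds 940 CPM of PSMB2.

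Genes that work with the proteasome but carry no PSM symbol were followed in 2 lists. The first held 21 subunits, maturation factors, shuttles, deubiquitinases and regulators. In SUDHL6 4 of them rose and 6 fell, against 17.7% and 19.7% of all genes, with a median of −0.02. Of the list 0 were called, against 4.31% of all genes called raised and 4.65% called lowered. In SUDHL16 1 was called raised and 0 lowered, against 3.2% and 2.1% of all genes. The gene called was NFE2L1 (NRF1), the transcription factor that induces proteasome genes when proteasomes are impaired. It stood at 202, 129 (CE-26) and 174 CPM in the SUDHL16 parental libraries and 376, 383 and 540 in the resistant ones (1.36 ± 0.30, adjusted p = 0.0355, and 1.21 ± 0.25, adjusted p = 0.0193, without CE-26). Leaving out any other library of the line ended this call too, with log2 fold changes of 1.18 to 1.52 and adjusted p-values of 0.0911 to 0.149. In SUDHL6 NFE2L1 stood at 171 to 177 and 163 to 173 CPM (−0.05 ± 0.03, adjusted p = 0.199), and the difference between the lines was 1.43 ± 0.31 (adjusted p = 0.0154).

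The second list held 13 genes of interferon signalling and peptide presentation. In SUDHL6 12 were tested, 6 of them rose and 1 fell, against 17.7% and 19.7% of all genes, and 1 was called raised, against 4.31%. The called gene was ERAP2, a peptide-trimming aminopeptidase (14.2, 11.6 and 14.3 CPM, then 42.9, 42.3 and 42.2, 1.67 ± 0.07, adjusted p = 3.12e-09). TAP1 rose from between 19.6 and 21.5 CPM to between 25.4 and 26.6 (0.35 ± 0.06, adjusted p = 0.000366). IRF1, a factor that drives PSMB9 and TAP1, stood at 7.96 to 10.003 and 9.76 to 10.6 CPM and did not pass (0.16 ± 0.09, adjusted p = 0.216).

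In SUDHL16 the 2 called genes of this list of 13 were TAP1 and IRF1, both raised, with 3.2% of all genes called raised. TAP1 rose from 16.6, 17.2 (CE-26) and 21.4 CPM to 78.5, 73.4 and 89.4 (2.12 ± 0.23, adjusted p = 0.00176), and was called in all 13 alternatives. IRF1 rose from 4.68, 11.4 (CE-26) and 3.66 CPM to 24.0, 30.4 and 42.6 (2.395 ± 0.47, adjusted p = 0.0248), and was called in 8 of 13 alternatives. Leaving out any library of the line other than CE-26 ended the IRF1 call. Without CE-26 the log2 fold changes were 2.09 ± 0.24 for TAP1 and 2.96 ± 0.35 for IRF1. The change of TAP1 was larger in SUDHL16 than in SUDHL6 by 1.80 ± 0.21 (adjusted p = 0.000372). For its neighbour PSMB9 a difference was not shown (0.04 ± 0.44, adjusted p = 0.9999, and 0.27 ± 0.42 without CE-26). TAP1 and PSMB9 were not tested against each other. The bodies of the 2 genes overlap but their exons share 0 bases. TAP1 exons do share 672 bases with PSMB8-AS1 on the other strand, so the limit on read assignment given for PSMB8 and PSMB9 holds for TAP1 too. NLRC5, the transactivator of MHC class I genes, had 0 counts in the parental libraries CE-25 and CE-27, 22 counts in CE-26 and 287, 616 and 596 counts in the resistant libraries. Against a floor of 3 counts per library the NLRC5 level was at least 103-fold higher in every resistant library than in CE-25 and CE-27, which does not hold for CE-26. Its adjusted p was 0.231 with CE-26 and 0.000165 without it. In SUDHL6 it had 2 to 9 counts per library and was not tested.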

How the data were processed

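RNA of SUDHL6 and SUDHL16 parental and resistant cells was sequenced in 12 libraries. The authors trimmed adapters (TrimGalore), aligned reads to GRCh38 (HISAT2), assembled transcripts (StringTie) and deposited, per library, whole-number counts of reads per gene without normalization; the counting tool, its annotation and its use of strand are not given in the sources used here. Of 60675 Ensembl identifiers per file, 56558 matched GENCODE release 44, which gave symbols, exons and positions. No 2 libraries had identical counts. Groups were taken from the labels, which give no replicate numbers, so libraries are named by title.

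Each line was fitted alone with edgeR 4.0.16 (filterByExpr, TMM, quasi-likelihood test, two-sided, R 4.3.3), and the difference between the lines in 1 fit of all 12 libraries. That fit holds 1 spread per gene over both lines, so its p-values may be too small where SUDHL16 varied more. SE is the log2 fold change over the root of F. Ratios of catalytic subunits were compared by an exact permutation test on their log2 values. Adjusted p-values are Benjamini-Hochberg over all genes tested. CPM used TMM-scaled library sizes, and CPM per kb the merged exon length. Neighbours were tested protein-coding genes that start within 5 Mb. Alternatives were DESeq2 1.42.0, upper-quartile scaling, library totals, no filter, protein-coding genes only, limma 3.58.1 voom with quality weights, a joint fit, and leaving out each library. Scripts were tested on simulated counts with 1 spread for all genes of a line. In SUDHL6 100 of 100 changes of log2 size 1 and 100 of 100 of size 2 were called. In SUDHL16 these were 0 of 100 and 25 of 100, so a change that was not called there is not shown to be absent. Members and lists were chosen with earlier results of these data known. Named members were those called, the 5 interferon-inducible, PSMB5, PSMB6 and PSMB7, the 5 raised and 5 lowered with the smallest adjusted p among those passed in a line, those whose difference between lines passed, and those not tested; of the partner lists, the called genes and the regulators NFE2L1, NLRC5 and IRF1, with 1 further regulator of the rule not reported here. PSMA2, PSMA3, PSMB2, PSMB3, PSMB4, PSMC3IP, PSMD9, PSMD12, PSMD14, PSMF1, PSMG1 and PSMG4 were named after their values were seen. Protein identity of the catalytic pairs was not analysed here.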

Additional observations from a re-analysis of the deposited data

Results flagged for a closer look

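The change between resistant and parental cells was compared between the lines by a test of the difference itself (edgeR quasi-likelihood interaction in 1 fit of all 12 libraries, SUDHL16 change minus SUDHL6 change, log2 scale). It passed for 1 of 49 members tested and for 4 genes of the partner lists of 21 and 13, with 7.16% of all genes. That fit holds 1 spread per gene over both lines, so its p-values may be too small where SUDHL16 varied more. PSMA4 differed by 1.07 ± 0.21 (SE, adjusted p = 0.00797), NFE2L1 by 1.43 ± 0.31 (adjusted p = 0.0154), TAP1 by 1.80 ± 0.21 (adjusted p = 0.000372) and IRF1 by 2.34 ± 0.46 (adjusted p = 0.00944), each with the higher change in SUDHL16. ERAP2 differed by −1.54 ± 0.36 (adjusted p = 0.0228), with the higher change in SUDHL6. In PSMA4, NFE2L1, TAP1 and IRF1 all 3 SUDHL16 resistant libraries lay above the 3 parental ones, as in 14.6% of all genes. In SUDHL6 this held for ERAP2 and also for TAP1, as for 23.1% of all genes. Without CE-26 the differences were 0.94 for PSMA4, 1.22 for NFE2L1, 1.70 for TAP1, 2.77 for IRF1 and −1.26 for ERAP2, and all 5 passed, with 14% of all genes. Kits and sequencers differed between the lines, and their part was not tested.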

How the results depend on the processing

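In SUDHL6 PSMB8, PSMB9 and PSMG2 were the members called in 12 of 13 alternatives, and 0 were called in the joint fit of both lines, whose biological coefficient of variation was 0.369. The median of the SUDHL6 members was 0.0255 with upper-quartile scaling, 0.0180 with library totals, 0.0149 with no filter and −0.00145 to 0.0242 over the libraries left out in turn. In SUDHL16 the number of members called was 2 with DESeq2 (PSMA4 and PSMB8), 0 with library totals, 0 with no filter, 5 with voom (PSMA4, PSMB8, PSMB9, PSMD3 and PSME3), 7 in the joint fit and 0 to 2 over the libraries left out in turn, 2 being without CE-26 and 0 without any other. The SUDHL16 median was 0.0226 with library totals. The median over all genes of SUDHL16 was −0.11 with upper-quartile scaling, 0.11 with library totals and −1.18 with no filter. The number of all genes called was 140 in the joint fit against 1493 in SUDHL6. In SUDHL16 it was 1775 with DESeq2, 2648 with voom, 2855 in the joint fit, 1636 without CE-26 and 279 to 460 without another library, against 833. The difference between the lines passed for 4 members with upper-quartile scaling, 2 with protein-coding genes only and 5 without CE-26, against 1. The cause of these shifts was not tested.

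Signs changed in SUDHL16 for genes near 0 that were not called. With upper-quartile scaling the log2 fold change was −0.084 for ERAP2, −0.067 for PSMC1, −0.11 for PSME2 and −0.077 for PSME3IP1. With protein-coding genes only it was −0.037 for ERAP2, −0.039 for PSMC1, −0.065 for PSME2 and −0.043 for PSME3IP1. With voom it was −0.13 for PSMB5, −0.14 for PSMC1 and −0.15 for PSME3IP1. With DESeq2 it was −0.019 for PSME2 and −0.013 for PSME3IP1, and with library totals 0.0032 for PSMB7 and 0.0025 for PSMD13. Over the libraries left out in turn it ranged from −0.18 to 0.44 for ERAP2, −0.17 to 0.33 for PSMB5, −0.055 to 0.42 for PSMB6, −0.27 to 0.19 for PSMC1, −0.29 to 0.030 for PSMD13, −0.14 to 0.31 for PSME2 and −0.24 to 0.21 for PSME3IP1. No paired analysis was possible because the labels carry no replicate numbers.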
